A study of Mus musculus with 24 samples.

Results

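The 7 genes that encode the cyclin-dependent kinase (Cdk) inhibitors of the mouse, Cdkn1a, Cdkn1b, Cdkn1c, Cdkn2a, Cdkn2b, Cdkn2c and Cdkn2d, were followed by RNA-Seq in splenic B and non-B cells. They were chosen by symbol, and all 7 were found among the 21671 genes of every file. RNA was profiled in 24 samples from C57/Bl6 mice of 8 weeks of age, either Trp53+/+ or Trp53-/-, the latter carrying a constitutive p53 deletion in all of their cells. Mice were left unstressed (mock) or received 7 Gy of whole-body ionizing radiation (IR), and cells were collected after 4 h. B cells were those retained by B220 magnetic beads after lysis of red blood cells, and non-B cells were the flow-through of the same columns, so that the latter are a mixture. Each cell type and treatment had 4 Trp53+/+ and 2 Trp53-/- samples. According to the methods of the study, the samples of a group came from separate mice, which the labels do not state.

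Cdk inhibitors are small proteins that hold back the kinases driving the cell cycle. The INK4 proteins, encoded by Cdkn2a (p16, together with Arf from an alternative reading frame), Cdkn2b (p15), Cdkn2c (p18) and Cdkn2d (p19), bind Cdk4 and Cdk6 and keep them from D-type cyclins. The Cip/Kip proteins, encoded by Cdkn1a (p21), Cdkn1b (p27) and Cdkn1c (p57), bind complexes of Cdks with cyclins, among them those of Cdk2 and Cdk1. Cdkn1a is the classical p53 target behind cell cycle arrest after DNA damage, whereas p27 is best known as the inhibitor that resting lymphocytes accumulate.

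Cdkn1a lies at chr17:29227924-29237667 on the plus strand of mm9, between Srsf3 and Rab44. In the annotation of that assembly a protein-coding transcript starts at the 5' end of the gene and others start 2793 and 7228 bases downstream. The window from 5000 bases before to 2000 bases after the 5' end of each of the 7 genes was searched for the canonical p53 response element, a pair of decameric half-sites without spacer, which reads the same on both strands, allowing 1 mismatch outside the central C and G of each half-site. Cdkn1a held the only match among the 7 genes, at chr17:29227873-29227892, starting at position -51 from the 5' end. The element is shown because the region amplified in the p53 ChIP-qPCR of the study, from -69 to 79 around the 5' end, contains it, and capitals mark the cores of the half-sites.
Cdkn1a element: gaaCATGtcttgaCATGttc
ChIP-qPCR forward primer: tagctttctggccttcagga
ChIP-qPCR reverse primer: ggggtctctgtctccattca
Of 19923 gene windows of this kind, 258 (1.29%) held a match with at most 1 mismatch. The other 6 genes had no match with 2 mismatches either, a criterion met by 7.18% of all windows. A match of letters is a description of the sequence, and its absence from a window says nothing about binding elsewhere.

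Levels are given as RPKM, read numbers normalised to the length of the gene and to the exonic reads of the library. The depth, estimated from the steps between low values, ranged from 4.70 M to 10.92 M reads per sample. Trp53, the targeted gene, kept a transcript in Trp53-/- cells, with 21.6 and 21.7 RPKM in the mock B samples against 44.8 to 47.9 in Trp53+/+ mock B samples, and with 23.97 and 25.04 against 43.4 to 49.5 in non-B cells. After IR its means were 41.2 RPKM in Trp53-/- and 61.8 RPKM in Trp53+/+ B cells, a called rise in the former (log2 fold change 0.91, limma adjusted p = 2.6e-06), and 35.5 and 36.9 RPKM in Trp53-/- and Trp53+/+ non-B cells, so that the level of this transcript did not tell the genotypes apart in irradiated non-B cells. The 10 reference p53 targets (among them Bbc3, Phlda3, Sesn2 and Zmat3) were all called higher after IR in Trp53+/+ cells of both types. The share of all tested genes called higher there was 12.4% for B and 5.71% for non-B cells. This list was chosen with earlier results of these data known, so that the count is a description and not an independent check. B cell markers summed to a mean of 1196 RPKM in Trp53+/+ mock B samples and still to 510 RPKM in non-B samples, and T cell markers to 73.9 and 579 RPKM. Several libraries stood apart. The share of 1440 olfactory and vomeronasal receptor genes with a value above 0, which lymphocytes are not known to use, was 5.42% to 9.31% in mock samples but 36.7% and 47.3% in Trp53+/+ B IR samples 1 and 2 and 51.3% and 35.8% in Trp53+/+ non-B IR samples 3 and 4, with 24.7% in sample 1 of the latter group. Trp53+/+ non-B mock samples 1 and 2 had summed erythroid markers of 496 and 488 RPKM, against 154 and 187 RPKM in samples 3 and 4. Results were therefore also computed without the former 4 libraries and without the latter pair.

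In unstressed B cells, Cdkn1b was the most abundant of the 7 transcripts. Its level per length was 46.1, 47.6, 47.6 and 47.2 RPKM in the 4 Trp53+/+ mock samples, 78.8% ± 3.6 (SD, n = 4) of the summed RPKM of the 7 genes. Cdkn2c came second at 9.66 ± 2.39 RPKM (SD, n = 4), without overlap with either neighbour in the order. Cdkn1a (1.08 ± 0.20 RPKM), Cdkn2d (0.918 ± 0.136 RPKM), Cdkn2b (0.639 ± 0.234 RPKM), Cdkn1c (0.316 ± 0.176 RPKM) and Cdkn2a (0.109 ± 0.162 RPKM) followed, each overlapping the next. The order of Cdkn2d depends on its gene model, since its RPKM steps correspond to whole reads over 2.675 kb whereas its annotated exons span 1.271 kb. Unstressed non-B cells also had Cdkn1b at the top, at 49.7 ± 3.3 RPKM, and Cdkn2c next, at 18.0 ± 11.7 RPKM.

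**Figure D1:**
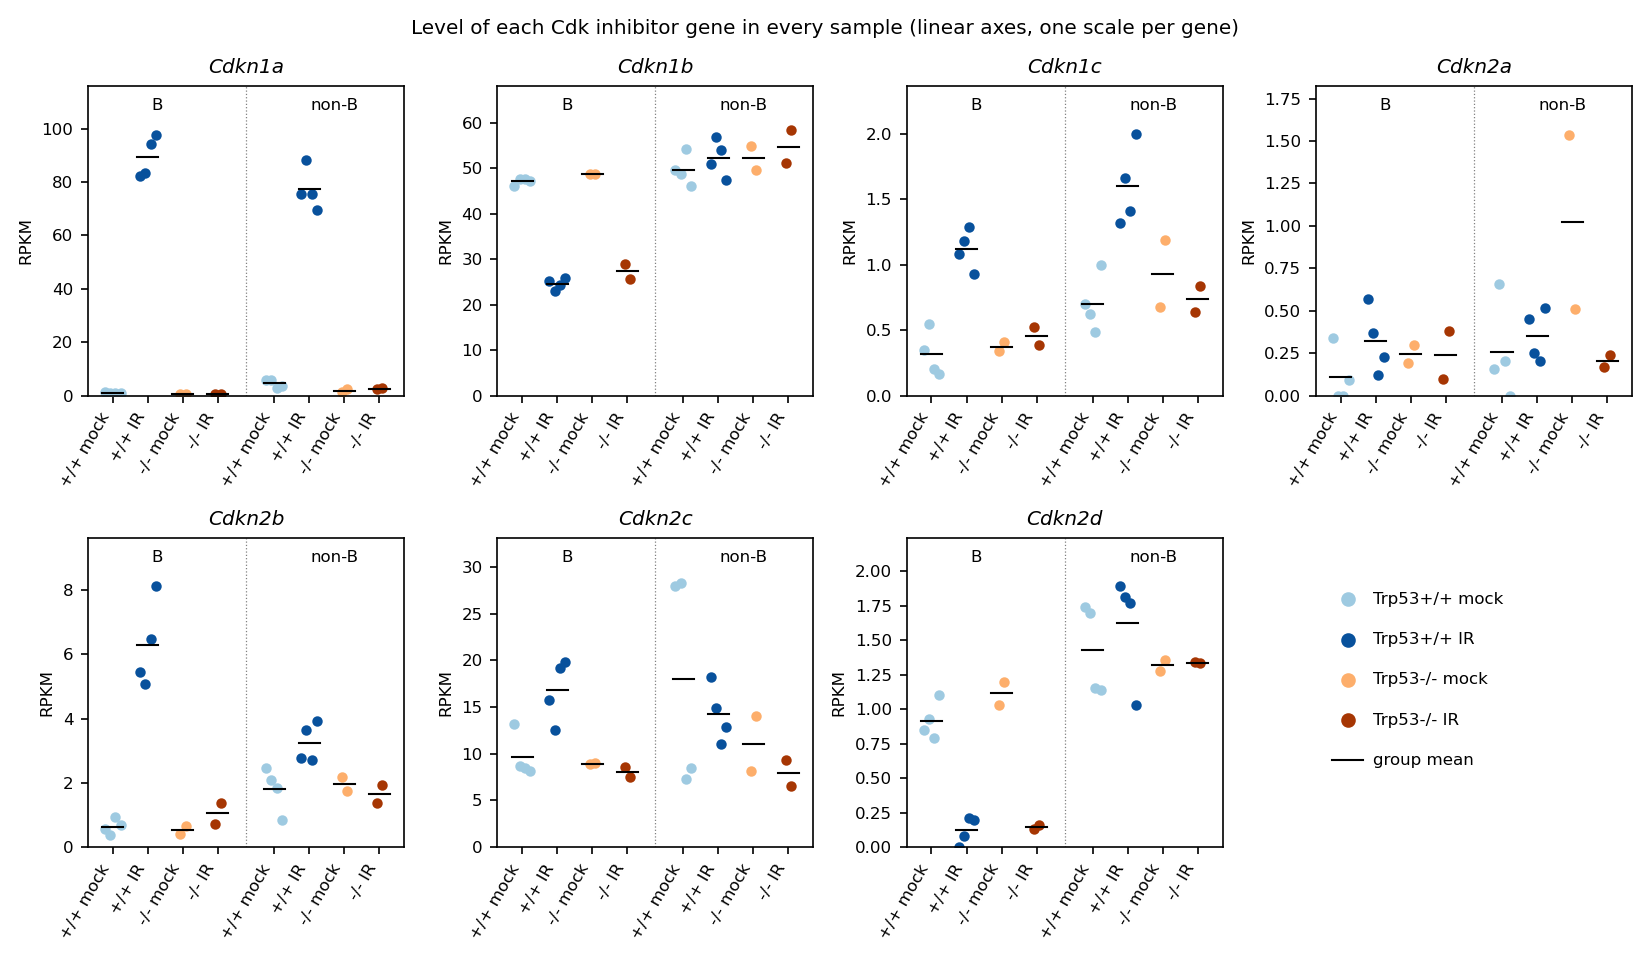
RPKM of the 7 genes in each of the 24 samples (points), by cell type, Trp53 genotype and treatment, with group means as bars and a linear axis for each gene. Cdkn1a reaches 69.6 RPKM or more in every irradiated Trp53+/+ sample, and Cdkn1b and Cdkn2d are lower after IR in B cells of both genotypes.

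IR exchanged the dominant inhibitor transcript of Trp53+/+ B cells. The summed RPKM of the 7 genes was 59.8 ± 2.0 in mock and 138.7 ± 12.8 in irradiated Trp53+/+ B samples (SD, n = 4 each). Cdkn1a made up 1.80% ± 0.27 of the sum in mock samples and 64.5% ± 1.4 after IR, and Cdkn1b went from 78.8% to 17.8% ± 1.2. In Trp53-/- B cells, the sum was 60.3 and 60.8 RPKM in the mock samples and 36.3 and 39.6 RPKM after IR, with Cdkn1a at 1.71% of it. In Trp53+/+ non-B cells, the sum was 76.4 ± 13.9 RPKM in mock and 150.6 ± 12.6 RPKM in irradiated samples, Cdkn1a taking 51.3% ± 1.2 and Cdkn1b 34.7% ± 1.4 of the latter. These shares compare RNA per length and say nothing of the proteins.

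**Figure D2:**
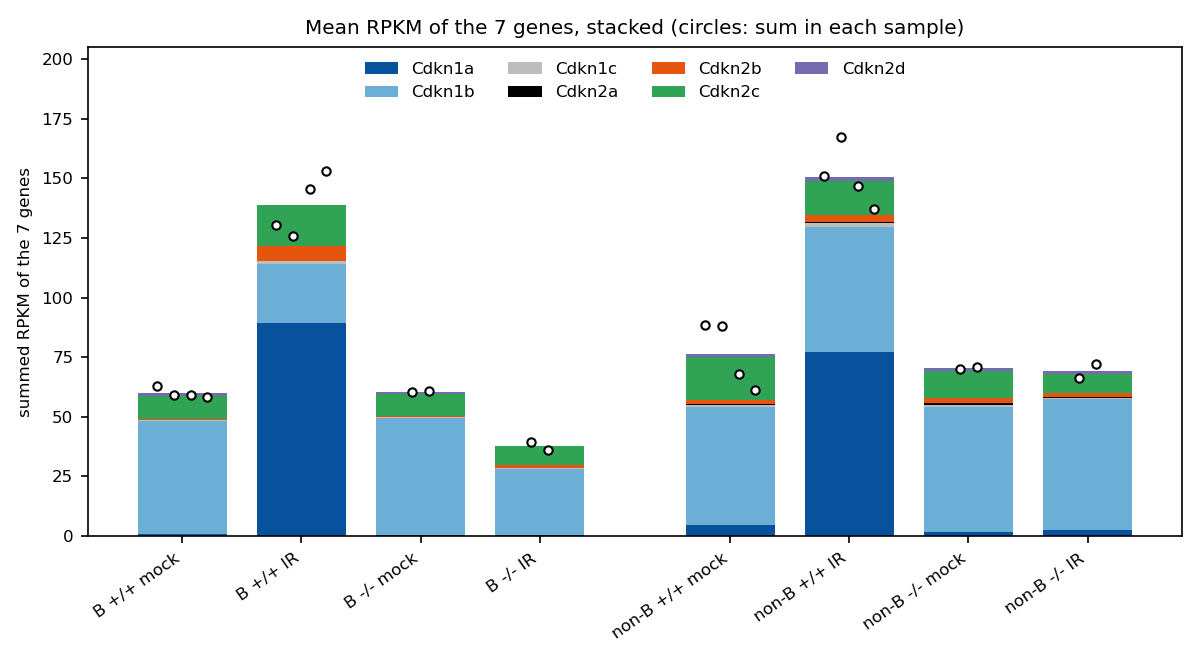
Mean RPKM of the 7 genes stacked for each of the 8 groups, with the sum in each sample as a circle. The sum is 138.7 RPKM in irradiated Trp53+/+ B cells and 150.6 RPKM in irradiated Trp53+/+ non-B cells, against means of 37.9 to 76.4 RPKM in the other groups.

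Which of these genes responded to IR in B cells was tested with limma on log2(RPKM + 0.5), in a single fit over the 12 B samples, and genes were called (DEGs) when the Benjamini-Hochberg adjusted p was under 0.05 and the log2 fold change exceeded 0.58 in either direction. In Trp53+/+ B cells, 4 of the 7 genes were called higher (Cdkn1a, Cdkn1c, Cdkn2b and Cdkn2c) and 2 were called lower (Cdkn1b and Cdkn2d), where 24.5% of the 13945 genes tested were called. The background was 12.4% of genes called higher and 12.1% called lower. Cdkn2a did not reach 1 RPKM in any B sample and was not tested, and Cdkn1c, Cdkn2b and Cdkn2d passed this filter through 1 treatment alone, so that the counts are given as a description. Without the filter, the same 6 genes were called. The median log2 fold change of the 6 genes was 0.89, beside 0.01 over all genes tested. Under all scalings tried, the median over all genes stayed within 0.1 of 0 on the log2 scale.

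Cdkn1a, which encodes p21, had 1.36, 1.01, 1.06 and 0.893 RPKM in the 4 Trp53+/+ mock B samples and 82.3, 83.5, 94.2 and 97.8 RPKM in the 4 irradiated ones. Every irradiated sample was thus far above every mock sample, with a ratio of the mean RPKM of 82.7. The log2 fold change was 5.83 (SE 0.12, limma adjusted p = 1.9e-11), and the exact permutation test of the 4 against 4 samples gave its smallest possible two-sided p of 0.0286. In this comparison 45.9% of all genes tested had no overlap, 22.8% being higher and 23.1% lower after IR. In Trp53-/- B cells, Cdkn1a stayed at 0.689 and 0.563 RPKM in mock and 0.562 and 0.726 RPKM in irradiated samples, and these pairs overlapped. The log2 fold change there was 0.02 (95% interval -0.36 to 0.40, adjusted p = 0.95). The difference between the genotypes, tested directly, was 5.81 on the log2 scale (SE 0.21, adjusted p = 1.2e-08).

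Cdkn2b, which encodes the Cdk4 and Cdk6 inhibitor p15, rose from low levels. It had 0.558, 0.383, 0.940 and 0.673 RPKM in Trp53+/+ mock B samples and 5.46, 5.08, 6.48 and 8.14 RPKM after IR. The gene steps of its RPKM correspond to 5 to 10 reads per mock sample and 34 to 88 reads per irradiated sample, and the groups did not overlap (exact permutation p = 0.0286, with 45.9% of genes without overlap in this comparison, 22.8% higher and 23.1% lower after IR). The ratio of the mean RPKM was 9.85, and the log2 fold change, which the pseudocount holds down at such levels, was 2.58 (SE 0.22, adjusted p = 1e-06). In Trp53-/- B cells, the values were 0.392 and 0.651 RPKM in mock and 0.732 and 1.39 RPKM in irradiated samples, both irradiated samples being above both mock samples, with a log2 fold change of 0.59 (95% interval -0.07 to 1.25, adjusted p = 0.15). The genotypes differed by 1.99 on the log2 scale (SE 0.37, adjusted p = 0.0035).

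Cdkn2c, which encodes p18, an INK4 protein of developing lymphocytes and plasma cells, rose to a smaller extent. Trp53+/+ mock B samples had 13.2, 8.72, 8.51 and 8.17 RPKM, and irradiated ones had 15.8, 12.6, 19.1 and 19.8 RPKM. The groups overlapped, since mock sample 1 was above IR sample 2, and the exact permutation test gave p = 0.0571. The log2 fold change was 0.77 (SE 0.16, adjusted p = 0.0018), and stayed called when any 1 library was left out. Trp53-/- B samples had 8.86 and 8.999 RPKM in mock and 8.57 and 7.52 RPKM after IR. The genotype difference was 0.92 on the log2 scale (SE 0.28, adjusted p = 0.041), but the adjusted p was 0.056 with the replicate number as a block, 0.060 without the filter on low values, and above 0.05 in 10 of the 12 fits that each left out a B library, reaching 0.123 without Trp53-/- mock B sample 2.

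Cdkn1c, which encodes p57, was near the limit of detection in B cells. It had 0.350, 0.550, 0.202 and 0.161 RPKM in Trp53+/+ mock samples, equivalent to 3 to 10 reads, and 1.08, 1.18, 1.29 and 0.929 RPKM after IR, equivalent to 11 to 18 reads. The groups did not overlap (exact permutation p = 0.0286, with 45.9% of genes without overlap in this comparison). The log2 fold change was 1.01 (SE 0.19, adjusted p = 0.00079). Trp53-/- B samples had 0.337 and 0.409 RPKM in mock and 0.525 and 0.387 RPKM after IR, a log2 fold change of 0.13 (adjusted p = 0.75). The genotype difference of 0.88 on the log2 scale did not pass the test (95% interval 0.16 to 1.60, adjusted p = 0.084).

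Cdkn1b, which encodes p27, fell in irradiated B cells of both genotypes. Its 4 Trp53+/+ mock values, given above, lay between 46.1 and 47.6 RPKM, and irradiated samples had 25.1, 23.0, 24.3 and 25.9 RPKM. The irradiated samples were 1.92-fold lower on average and lay far below the mock samples, with a log2 fold change of -0.93 (SE 0.06, adjusted p = 5.7e-08). Over all genes tested, 23.1% had every irradiated sample below every mock sample here. In Trp53-/- B cells, the level was 48.8 and 48.7 RPKM in mock and 28.9 and 25.7 RPKM in irradiated samples, a log2 fold change of -0.83 (SE 0.08, adjusted p = 8.1e-06). The difference between genotypes was -0.10 on the log2 scale, with a 95% interval from -0.31 to 0.11 (adjusted p = 0.52).

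Cdkn2d, which encodes p19, was nearly lost from irradiated B cells. Trp53+/+ mock samples had 0.846, 0.928, 0.793 and 1.10 RPKM, equivalent to 23, 23, 16 and 28 reads, and the irradiated samples were listed at 0, 0.079, 0.210 and 0.195 RPKM, equivalent to 0, 1, 4 and 4 reads. No irradiated sample came near a mock sample, and the mean RPKM was 7.58-fold lower (log2 fold change -1.20 with the pseudocount, SE 0.18, adjusted p = 0.00014). All irradiated samples lay below all mock samples for 23.1% of the genes tested. Trp53-/- B samples had 1.03 and 1.20 RPKM in mock and 0.129 and 0.162 RPKM after IR, equivalent to 25 and 28 against 3 and 4 reads, a mean RPKM 7.67-fold lower (log2 fold change -1.32, SE 0.25, adjusted p = 0.0013). The genotype difference was 0.12 on the log2 scale (95% interval -0.55 to 0.80, adjusted p = 0.83). Counts this small give the ratios wide counting errors, and a level of 0 does not exclude expression below the value of a read.

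In Trp53-/- B cells, 2 of the 6 genes tested were thus called, both lower, where 24.2% of all genes tested were called and 11.2% were called lower. The median log2 fold change of the 6 genes was -0.06, beside 0.02 over all genes. The genotype difference uses the same mock and irradiated samples as the comparisons within each genotype. It was called for Cdkn1a, Cdkn2b and Cdkn2c, 3 of the 6 genes, with a background of 11.9% (6.5% in the direction of a larger rise in Trp53+/+ cells). Cdkn1c and Cdkn2b passed the filter through irradiated samples alone and Cdkn2d through mock samples alone. Both counts are therefore given as a description. Without the 4 libraries rich in receptor genes, the same 6 genes were called in Trp53+/+ B cells, with log2 fold changes of 5.94 for Cdkn1a, 2.79 for Cdkn2b, 1.00 for Cdkn2c, 0.99 for Cdkn1c, -0.90 for Cdkn1b and -1.01 for Cdkn2d, and the Cdkn2c genotype difference was 1.15 (adjusted p = 0.013). Erythroid markers, which summed to 62.6 to 138 RPKM in Trp53+/+ mock and 48.2 to 54.8 RPKM in irradiated B samples, and proliferation markers, at 52.98 to 123 and 47.1 to 61.7 RPKM, also moved with IR, with 7 of 10 and 5 of 6 of their genes called lower. The part of these cells in the values above was not tested, and in bulk RNA a smaller number of cells of a type and a lower level per cell cannot be told apart.

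**Figure D3:**
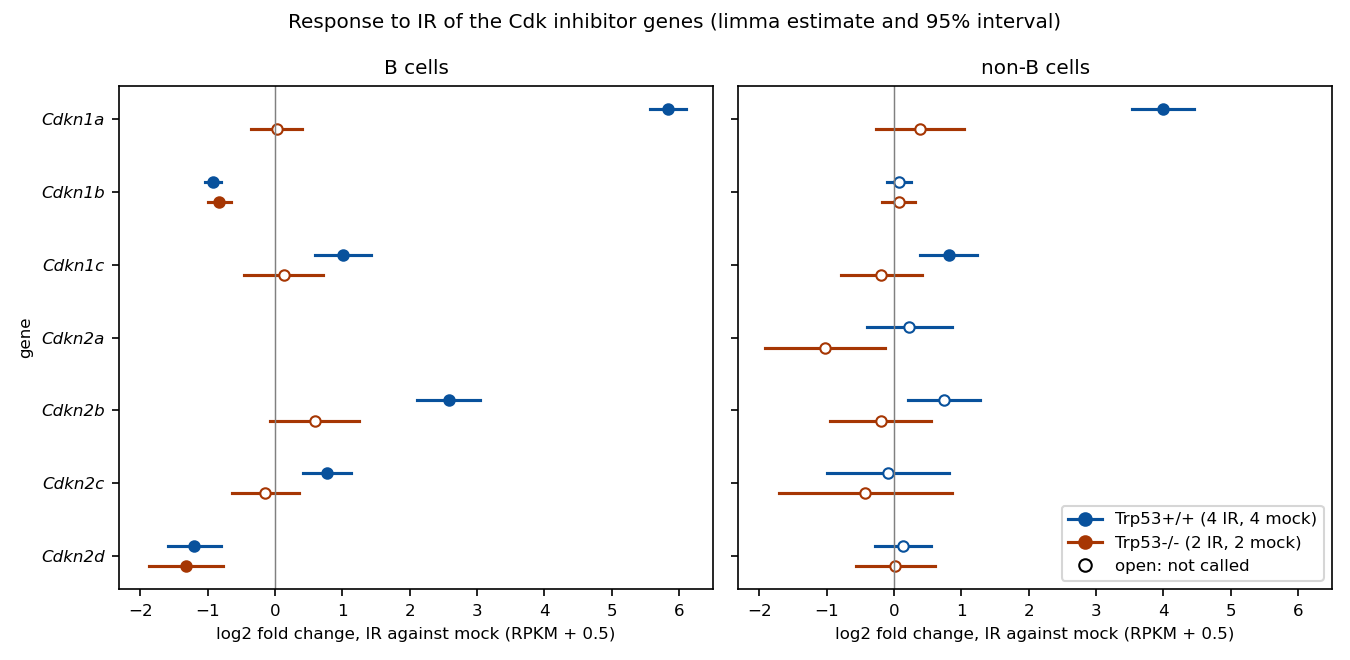
Log2 fold change of each gene, IR against mock, in B and non-B cells of Trp53+/+ (blue) and Trp53-/- (brown) mice, with the 95% interval of the limma fit as a line and filled points for called genes (Cdkn2a was not tested in B cells). Cdkn1a stands at 5.83 and 3.99 in Trp53+/+ B and non-B cells, and the intervals of Cdkn1b and Cdkn2d in B cells lie below 0 in both genotypes.

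In non-B cells, fewer of the 7 genes moved. After IR, Cdkn1a and Cdkn1c were called higher in Trp53+/+ non-B cells, 2 of the 7 genes tested, and none was called lower. Here 9.79% of the 14138 genes tested were called, and 5.71% of the genes tested were called higher. The median log2 fold change of the 7 genes was 0.23, beside -0.03 over all genes. Cell type markers moved with IR in these samples as well. Summed erythroid markers had a mean of 331 RPKM in mock and 65.4 RPKM in irradiated Trp53+/+ non-B samples, with 6 of 10 genes called lower, and 3 of 10 T cell markers, 2 of 10 B cell markers and 2 of 6 proliferation markers were called lower, while 1 of 10 myeloid markers, Cd14, was called higher. The mock erythroid sums were 496 and 488 RPKM in samples 1 and 2 but 154 and 187 RPKM in samples 3 and 4. After IR they were 38.5 to 124 RPKM. As in B cells, fewer cells of a type and a lower level per cell cannot be told apart. The part of these cells in the changes described next was not tested.

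Cdkn1a had 5.87, 5.83, 2.85 and 3.73 RPKM in Trp53+/+ mock non-B samples and 75.6, 88.3, 75.7 and 69.6 RPKM after IR, 16.9-fold higher on average and without overlap (exact permutation p = 0.0286, the smallest possible, with 22% of genes without overlap here, 9.99% higher and 12% lower after IR). The log2 fold change was 3.99 (SE 0.21, adjusted p = 3.9e-07), and 4.07 without the libraries rich in receptor genes. Trp53-/- non-B samples had 1.38 and 2.35 RPKM in mock and 2.42 and 2.63 RPKM after IR, both irradiated samples being slightly above both mock samples, with a log2 fold change of 0.39 (95% interval -0.26 to 1.04, adjusted p = 0.58). The genotype difference was 3.60 on the log2 scale (SE 0.36, adjusted p = 0.00026).

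Cdkn1c had 0.698, 0.627, 0.482 and 0.995 RPKM in Trp53+/+ mock non-B samples, equivalent to 8 to 18 reads, and 1.32, 1.67, 1.41 and 2.00 RPKM after IR, equivalent to 20 to 40 reads. The groups did not overlap, as was the case for 22% of genes in this comparison, and the log2 fold change was 0.81 (SE 0.19, adjusted p = 0.016). The call was lost without the libraries rich in receptor genes (0.74, adjusted p = 0.072) and without Trp53+/+ non-B mock samples 1 and 2 together (0.78, adjusted p = 0.073). Trp53-/- non-B samples had 0.675 and 1.19 RPKM in mock and 0.642 and 0.837 RPKM after IR, and the genotype difference of 1.00 on the log2 scale did not pass the test (95% interval 0.27 to 1.73, adjusted p = 0.089).

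Cdkn2b had 2.47, 2.08, 1.85 and 0.848 RPKM in Trp53+/+ mock non-B samples and 2.76, 3.64, 2.71 and 3.91 RPKM in irradiated ones. The latter all lay above the mock samples (exact permutation p = 0.0286, with 9.99% of genes separated in this direction). Its log2 fold change of 0.74 (95% interval 0.21 to 1.28) missed the threshold narrowly, with an adjusted p of 0.053. It passed with a pseudocount of 1 (adjusted p = 0.048), with median-ratio scaling (0.049), without Trp53+/+ non-B mock sample 1 (0.039) and without mock samples 1 and 2 together (log2 fold change 1.06, adjusted p = 0.025). Trp53-/- non-B samples overlapped, with 2.19 and 1.74 RPKM in mock and 1.38 and 1.95 RPKM after IR.

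Cdkn1b and Cdkn2d, the genes that fell in B cells, did not pass the test in non-B cells. Trp53+/+ non-B samples had 49.6, 48.7, 54.2 and 46.2 RPKM of Cdkn1b in mock and 50.8, 56.9, 54.0 and 47.4 RPKM after IR, a log2 fold change of 0.07 with a 95% interval from -0.10 to 0.25 (adjusted p = 0.56). Cdkn2d had 1.74, 1.70, 1.15 and 1.137 RPKM in mock and 1.89, 1.81, 1.77 and 1.03 RPKM after IR (log2 fold change 0.13, 95% interval -0.28 to 0.55, adjusted p = 0.66). In Trp53-/- non-B cells, Cdkn1b lay between 49.5 and 58.5 RPKM and Cdkn2d between 1.28 and 1.36 RPKM in all 4 samples. Mock and irradiated samples overlapped for both genes.

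Cdkn2c was spread over a wide range among unstressed non-B samples. Trp53+/+ mock samples 1 and 2 had 28.0 and 28.2 RPKM and samples 3 and 4 had 7.28 and 8.42 RPKM, on both sides of the irradiated samples, with 18.2, 14.8, 10.98 and 12.8 RPKM. The log2 fold change was -0.09 with a 95% interval from -1.005 to 0.82 (adjusted p = 0.90). Summed proliferation markers (Mki67, Top2a, Ccnb1, Cdk1, Birc5 and Aurkb) were 286 and 269 RPKM in mock samples 1 and 2, and 84.8 and 99.7 RPKM in samples 3 and 4. They were 117, 82.7, 56.0 and 61.9 RPKM after IR, where the order of the 4 samples was the same as for Cdkn2c. Without mock samples 1 and 2 the log2 fold change was 0.80 (adjusted p = 0.056). In B cells the levels did not run together across treatments, since proliferation markers were 52.98 to 123 RPKM in Trp53+/+ mock and 47.1 to 61.7 RPKM in irradiated samples while Cdkn2c rose. The part of dividing cells in the Cdkn2c values was not tested.

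**Figure D4:**
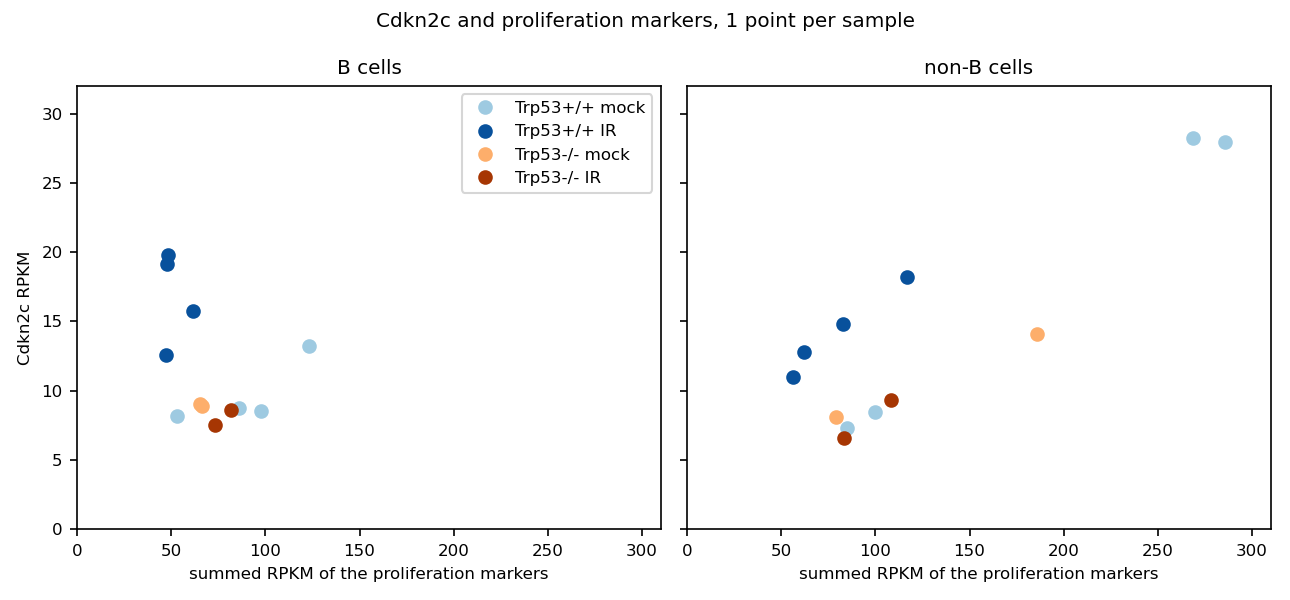
Cdkn2c RPKM of each sample against the summed RPKM of 6 proliferation markers, for B and non-B cells, 1 point per sample. Non-B mock samples 1 and 2 of Trp53+/+ mice stand apart at 269 and 286 RPKM of markers and 28 RPKM of Cdkn2c, whereas irradiated Trp53+/+ B samples have 12.6 to 19.8 RPKM of Cdkn2c at 47.1 to 61.7 RPKM of markers.

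Cdkn2a was at the floor in nearly every sample. It was listed at 0 to 0.659 RPKM in Trp53+/+ mock and 0.122 to 0.570 RPKM in Trp53+/+ irradiated samples of both cell types, equivalent to 0 to 8 reads. The highest value of the 24 samples was that of Trp53-/- non-B mock sample 1, 1.54 RPKM or 16 reads, and sample 2 of that group had 0.509 RPKM or 5 reads. Their irradiated counterparts had 0.169 and 0.239 RPKM, 2 reads each. That sample was the only one above 1 RPKM, so that Cdkn2a entered the non-B fit through the Trp53-/- mock group alone, and its fitted differences that involve this group are given as values without a reading. The difference between Trp53-/- and Trp53+/+ non-B mock samples was 0.99 on the log2 scale (limma adjusted p = 0.84). The gene row takes p16 and Arf transcripts together, so that the 2 products cannot be told apart here.

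None of the 7 genes was called after IR in Trp53-/- non-B cells, where 0.488% of all genes tested were called. Without adjustment, 1 gene had a limma p under 0.05, Cdkn2a (log2 fold change -1.03, limma adjusted p = 0.24), which had entered the fit through the mock group of this comparison. The genotype difference of the IR response in non-B cells was called for Cdkn1a alone, 1 of 7 genes with a background of 6.53%, or 3.71% in that direction. Cdkn1c and Cdkn2b had differences of 1.00 and 0.94 on the log2 scale that did not pass (limma adjusted p = 0.089 and 0.19). The difference of Cdkn2a was 1.26 (adjusted p = 0.14), with the same limit on its entry into the fit.

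Unstressed Trp53-/- cells were also compared with unstressed Trp53+/+ cells. No member passed in B cells, where 0.0574% of all genes were called, or in non-B cells, where 0.0566% were called. For Cdkn1a, both Trp53-/- mock samples were below all 4 Trp53+/+ mock samples in each cell type, with log2 differences of -0.48 in B cells (95% interval -0.81 to -0.15, limma adjusted p = 0.75) and -1.08 in non-B cells (95% interval -1.64 to -0.52, limma adjusted p = 0.57). The share of all genes separated in this way was not computed. According to the methods of the study, B and non-B cells were fractions of the same spleens. The labels do not state which samples share a mouse, and the cell types may not be independent. Neither difference passed the correction over all genes. Without adjustment, Cdkn1a had a limma p under 0.05 in both cell types, and in non-B cells so did Cdkn2a, which entered that fit through the Trp53-/- mock group alone.

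B and non-B cells of unstressed Trp53+/+ mice differed in Cdkn1a and Cdkn2b, both called lower in B cells, 2 of the 6 genes tested with a background of 24.6% called and 17.2% called lower. The fit treated the 16 Trp53+/+ samples as independent, although B and non-B cells were fractions of the same spleens. Its p-values do not take this into account. Cdkn1a was 4.22-fold lower by mean RPKM (log2 difference -1.64, SE 0.17, adjusted p = 1e-06), and Cdkn2b was 2.84-fold lower (log2 difference -0.99, SE 0.24, adjusted p = 0.0031). Without non-B mock samples 1 and 2, the Cdkn2b difference was -0.67 (adjusted p = 0.069) and that of Cdkn1a -1.26 (adjusted p = 4.5e-06). Cdkn1c had a log2 difference of -0.56 (adjusted p = 0.023), short of the fold threshold, and it was called, at -0.59 to -0.69, without B mock sample 1 or 2 or without non-B mock sample 2 or 3, and with a pseudocount of 0.1 (adjusted p = 0.013). Cdkn2c was called at -0.96 (adjusted p = 0.027) without non-B mock sample 3 (and in no other fit that left out 1 library) against -0.63 (adjusted p = 0.17) with all libraries.

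The IR response itself differed between Trp53+/+ B and non-B cells for 4 of the 6 genes tested, 2 in each direction, where 18.8% of 14598 genes were called, 9.88% with a higher and 8.9% with a lower response in B cells. The Cdkn1a response was larger in B cells by 1.85 on the log2 scale (SE 0.24, adjusted p = 5.1e-05). Its irradiated levels nevertheless overlapped between the cell types, with 82.3 to 97.8 RPKM in B and 69.6 to 88.3 RPKM in non-B samples, while mock levels did not. Cdkn2b rose more in B cells by 1.83 (SE 0.33, adjusted p = 0.00078) and crossed over, since it was lower in B cells before IR and higher after it, with 5.08 to 8.14 RPKM against 2.71 to 3.91 RPKM. Cdkn1b differed by -0.997 (SE 0.09, adjusted p = 3.8e-06) and Cdkn2d by -1.33 (SE 0.27, adjusted p = 0.0016), both falling in B cells. These 4 calls were kept without the libraries rich in receptor genes and without non-B mock samples 1 and 2. The same fit was used, which took B and non-B samples as independent although they were fractions of the same spleens. For Cdkn1c (0.20, 95% interval -0.36 to 0.75) and Cdkn2c (0.87, 95% interval -0.20 to 1.93) the difference did not pass.

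Across the 8 groups, the genes fell into different orders. Cdkn1a rose from Trp53-/- B mock (0.626 RPKM) through Trp53-/- B IR, Trp53+/+ B mock, Trp53-/- non-B mock, Trp53-/- non-B IR and Trp53+/+ non-B mock (4.57 RPKM) to the 2 irradiated Trp53+/+ groups at 77.3 and 89.5 RPKM. Neighbours in this order overlapped at its 2 ends and nowhere else. For Cdkn1b the 2 irradiated B groups, which overlapped each other at 24.6 and 27.3 RPKM, stood below 6 groups with means between 47.1 and 54.8 RPKM. Among those 6, neighbours overlapped except Trp53+/+ and Trp53-/- mock B cells. Neighbours overlapped throughout for Cdkn2a.

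The genes with the most similar pattern were sought by the Pearson correlation of log2(RPKM + 0.5) over the 24 samples, among 14688 genes. This is a description, since the samples share libraries and groups. Sesn2, a stress-induced p53 target, was closest to Cdkn1a (r = 0.992), followed by Gtse1 (0.980) and Dennd2c (0.979). Sesn2 had means of 4.17 and 50.3 RPKM in mock and irradiated Trp53+/+ B cells and of 2.97 and 2.71 RPKM in Trp53-/- B cells. Closest to Cdkn2b were Tex15 (0.942), Fam131a (0.939) and Acad8 (0.938), and closest to Cdkn1c were Gria3 (0.879), Acad8 (0.874) and Hdac4 (0.870). Cdkn1b and Cdkn2d shared a neighbour, Ddx26b (0.971 and 0.962), which had 17.7 and 8.43 RPKM in mock and irradiated Trp53+/+ B cells, with 20.03 and 21.5 RPKM in non-B cells. The other closest genes were Fam46a (0.966) and the cytokine receptor kinase gene Jak2 (0.957) for Cdkn1b, and Tspo (0.964) and Ctns (0.957) for Cdkn2d. Cdkn2c was closest to the mitotic kinesin gene Kif18b (0.923), BC021767 (0.914) and Arhgap11a (0.907). The values for Cdkn2a stayed at or below 0.663 (Zfp112). Between the members, the correlation was 0.948 for Cdkn1b with Cdkn2d, 0.883 for Cdkn1a with Cdkn2b and 0.828 for Cdkn1a with Cdkn1c.

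The nearest genes on each side of the 7 genes were also followed in B cells. Cdkn2a (chr4:88920377-88940557) and Cdkn2b (chr4:88952198-88956941), both on the minus strand, lie 11640 bases apart, and Cdkn2b rose in irradiated Trp53+/+ B cells while Cdkn2a stayed at 0.122 to 0.570 RPKM. Mtap, on the other side of Cdkn2a, had 19.2 and 19.95 RPKM in mock and irradiated Trp53+/+ B cells (log2 fold change 0.05, adjusted p = 0.58), but rose in Trp53-/- B cells from 17.4 to 42.0 RPKM (log2 fold change 1.25, adjusted p = 3.8e-06), with a genotype difference of -1.19 (adjusted p = 6.2e-05). Cdkn2d (chr9:21092907-21095653) lies 4247 bases from Ap1m2, which fell in irradiated B cells too, from 3.75 to 0.824 RPKM in Trp53+/+ (log2 fold change -1.69, adjusted p = 7.4e-06) and from 4.08 to 0.726 RPKM in Trp53-/- cells (-1.89, adjusted p = 9.2e-05). Kri1, 491 bases to the other side, had 30.4 and 36.6 RPKM in mock and irradiated Trp53+/+ B cells (log2 fold change 0.25, adjusted p = 0.078). Next to Cdkn1a, Rab44 rose in Trp53+/+ B cells from 0.58 to 2.18 RPKM (log2 fold change 1.29, adjusted p = 0.00043), and Srsf3 stayed at 70.9 and 68.1 RPKM (adjusted p = 0.49). Gpr19, next to Cdkn1b (log2 fold change -0.42, adjusted p = 0.072), and Faf1, next to Cdkn2c (-0.02, adjusted p = 0.90), were not called there. The neighbours Apold1, Kcnq1, Slc22a18, Dmrta1 and 4930522H14Rik stayed below 1 RPKM in B samples and were not tested. Over all genes tested in Trp53+/+ B cells, 12.4% were called higher and 12.1% lower. Whether changes of a member extended to its neighbours was not tested. No annotated gene overlaps any of the 7 genes.

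Transcripts for the partners of these inhibitors moved in part. Of the 7 tested genes for the Cdk1 and Cdk2 complexes, 6 were called lower and none higher in Trp53+/+ B cells, and likewise 6 and none in non-B cells, with median log2 fold changes of -0.87 and -1.71. Over all genes, 12.1% and 4.08% were called lower in these comparisons. Some of these genes were widely spread in Trp53+/+ non-B mock samples, with Ccnb1 at 23.87 ± 18.83 RPKM (SD) and Ccne1 at 31.75 ± 11.77 RPKM. Mock samples 1 and 2 of that group stood apart in proliferation markers, and this list was not computed without them. Ccne1, which encodes the cyclin E1 partner of Cdk2, fell from 22.1 ± 1.8 to 6.87 ± 1.404 RPKM in B cells (log2 fold change -1.64, SE 0.13, adjusted p = 5.2e-07). Its means were 23.2 and 6.37 RPKM in Trp53-/- B cells. Cdk1 was called lower in Trp53+/+ B cells (3.58 to 1.06 RPKM, log2 fold change -1.35, adjusted p = 0.00011), with means of 2.45 and 2.47 RPKM in Trp53-/- B cells. Ccnb1 and Ccna2 were also called lower in Trp53+/+ B cells, by -1.16 and -0.87. In Trp53-/- B cells 1 of the 7 genes was called lower, where 11.2% of all genes were. Cdk1 and Ccnb1 are among the proliferation markers, which moved with IR as given above.

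For the INK4 targets Cdk4 and Cdk6 and their partners, the D-type cyclins, 5 genes were tested. In Trp53+/+ B cells 1 was called higher and 1 lower, where 24.5% of all genes were called. In Trp53-/- B cells 3 were called higher and none lower, where 24.2% of all genes were called. The median log2 fold changes of the 5 genes were 0.25 and 0.75. Ccnd2 rose from 41.2 ± 4.0 to 79.4 ± 5.5 RPKM (log2 fold change 0.94, SE 0.08, adjusted p = 8.2e-07), with means of 36.6 and 90.6 RPKM in Trp53-/- B cells. Ccnd1 fell from 7.68 to 4.23 RPKM (log2 fold change -0.79, adjusted p = 0.0017). In Trp53+/+ non-B cells Cdk4 was the gene called, from 57.2 to 34.7 RPKM (log2 fold change -0.71, adjusted p = 0.00037). Its Trp53-/- non-B means were 56.9 and 60.3 RPKM.

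Further down, the retinoblastoma family member Rbl2 (p130) was called higher in both Trp53+/+ cell types, from 30.6 to 65.9 RPKM in B cells (log2 fold change 1.09, adjusted p = 2e-08) and from 34.3 to 59.5 RPKM in non-B cells (0.79, adjusted p = 2.2e-05). Its Trp53-/- B means were 30.6 and 15.5 RPKM. E2f2 and E2f8 fell in Trp53+/+ B cells by 1.39 and 1.30 on the log2 scale, and Tfdp1 rose by 1.07. In mock and irradiated Trp53-/- B cells the means were 32.9 and 15.9 RPKM for E2f2, 1.59 and 2.10 RPKM for E2f8, and 16.55 and 47.9 RPKM for Tfdp1. In all, 2 of 13 pocket protein and E2F genes were called higher and 3 lower in Trp53+/+ B cells, and 3 and 4 in Trp53-/- B cells. Over all genes tested, 24.5% and 24.2% were called in these comparisons. In Trp53+/+ non-B cells, where 9.79% of all genes were called, Rbl2 was the gene called higher and E2f6 that called lower.

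Of 23 tested genes known to regulate transcription of the inhibitors, 4 were called higher and 2 lower in Trp53+/+ B cells, a share close to the 24.5% of all genes called there. The counts were 3 higher and 5 lower in Trp53-/- B cells, where 24.2% of all genes were called. In Trp53+/+ non-B cells they were none and 2, where 9.79% were called. Foxo3, a forkhead factor that activates Cdkn1b, rose from 26.6 ± 2.5 to 66.2 ± 2.7 RPKM in Trp53+/+ B cells (log2 fold change 1.30, SE 0.07, adjusted p = 2.8e-08). Its means were 25.2 and 14.7 RPKM in mock and irradiated Trp53-/- B cells. The part of Foxo3 and of the regulators named next in the levels of the inhibitors was not tested. Klf2, a quiescence factor of lymphocytes, fell from 63.5 to 24.8 RPKM in Trp53+/+ B cells (log2 fold change -1.34, adjusted p = 1.1e-06), with means of 73.0 and 19.3 RPKM in Trp53-/- B cells. Tfap4, a repressor of Cdkn1a, was called higher in Trp53+/+ B cells (7.12 to 17.7 RPKM, log2 fold change 1.26), with means of 6.44 and 28.5 RPKM in Trp53-/- B cells, and lower in Trp53+/+ non-B cells (10.97 to 7.14 RPKM, log2 fold change -0.59). The Polycomb gene Cbx8, a repressor of the Cdkn2a locus, fell from 13.6 to 6.72 RPKM in Trp53+/+ B cells (log2 fold change -0.99, adjusted p = 0.00027). Myc, which represses Cdkn1a and Cdkn2b, fell in Trp53+/+ non-B cells from 35.6 to 14.7 RPKM (log2 fold change -1.30, adjusted p = 0.00069).

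Among 14 genes for the degradation of inhibitor proteins, 1 was called higher and 1 lower in Trp53+/+ B cells, and 3 and none in Trp53-/- B cells. Over all genes tested, 24.5% and 24.2% were called in these comparisons, and 9.79% in Trp53+/+ non-B cells. Ubac1, a subunit of the ligase that degrades p27, rose from 11.99 to 20.02 RPKM (log2 fold change 0.71), and Cks1b, a cofactor of the Skp2 ligase, fell from 14.9 to 9.36 RPKM (log2 fold change -0.66). In Trp53+/+ non-B cells Cks1b and Dtl were called lower, by -1.33 and -1.70, and none was called higher. Of 12 other brakes on Cdk activity, Gadd45g and Cables1 were called higher in Trp53+/+ B cells, by 1.398 and 1.29, and none lower. In Trp53-/- B cells 3 were called higher and 2 lower, beside the same shares over all genes. Gadd45g also had means of 14.1 and 35.01 RPKM in mock and irradiated Trp53-/- B cells. In Trp53+/+ non-B cells Cables1, Gadd45g and Gadd45b were called higher and the kinase gene Wee1 lower (log2 fold change -1.11).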

How the data were processed

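In the authors' pipeline, bases of a quality below 20 were masked and reads were aligned to mm9 with TopHat (TopHat2 2.0.8 in the submitters' processing notes), duplicates were reduced to 1 read, and reads were counted on UCSC genes with featureCounts 1.4.5. The values deposited by the authors are RPKM with 3 decimals. The library kit does not mark strand. Read counts were not used here, and limma 3.58.1 (R 4.3.3, lmFit and eBayes with a mean-variance trend) was run on log2(RPKM + 0.5) in place of the count test of the study, after removing genes that exceeded 1 RPKM in no sample of the fit. There was 1 fit per cell type (12 samples) and 1 over the 16 Trp53+/+ samples. The fits were tested on simulated data. Whole reads of low genes were estimated from the steps between their values, each gene with its own length. Other steps used Python 3.11.15, numpy 2.4.6, pandas 2.3.3 and matplotlib 3.10.9. Positions are from the annotation of NCBIM37, which is mm9. The members, gene lists and tests were chosen with earlier results of these data known. Genes named beside the members were set by rule, as the targeted gene, the 3 most correlated genes of each member, the nearest genes on each side, and at most 4 called genes of each list with the largest fold change. The deviations of same-numbered Trp53+/+ non-B mock and IR samples correlated at 0.156 to 0.323. Differently numbered samples were not compared, so that these values do not show a pairing, which the labels do not state. Same-numbered Trp53-/- and Trp53+/+ non-B mock samples correlated at -0.476 and 0.548. No member's call on IR in Trp53+/+ non-B cells changed with the replicate number as a block. Alternatives were 2 other pseudocounts, 3 other filters, 2 scalings, a receptor gene covariate, the replicate block, the 2 groups compared alone, no fold threshold, each library left out, a crossed pairing, and 2 sets of libraries left out together, the last 3 of these chosen after seeing the data.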

Additional observations from a re-analysis of the deposited data

Results flagged for a closer look

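Of 28 groups of 4 samples that were examined for a sample far from the others, 2 had one, where chance flags about 1 in 20. Cdkn2c had 13.22 RPKM in Trp53+/+ B mock sample 1, against 8.17 to 8.72 RPKM in the other 3. The same library had the highest summed proliferation markers of that group, 123 RPKM. Cdkn2d had 1.03 RPKM in Trp53+/+ non-B IR sample 4, against 1.77 to 1.89 RPKM in the other 3.

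The response to IR differed between groups by a test of the difference itself for 8 results. In B cells, the response of Trp53+/+ exceeded that of Trp53-/- cells by 5.81 for Cdkn1a, 1.99 for Cdkn2b and 0.92 for Cdkn2c on the log2 scale, the last of these being lost under several alternatives. In non-B cells, it did so by 3.60 for Cdkn1a. Between Trp53+/+ B and non-B cells, the response differed by 1.85 for Cdkn1a, 1.83 for Cdkn2b, -0.997 for Cdkn1b and -1.33 for Cdkn2d. Cdkn1b and Cdkn2d fell in B cells of both genotypes.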

How the results depend on the processing

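No result changed direction while called. Requiring an RPKM above 1 in at least 4 samples removed Cdkn1c and Cdkn2d in B cells. Their calls after IR there thus rest on the more lenient filter. The stricter filter left 1 member called in Trp53-/- B cells. With the receptor share as a covariate and without the libraries above 25%, 1 member was called after IR in Trp53+/+ non-B cells. Quantile normalization, and leaving out Trp53+/+ non-B mock samples 1 and 2 together, left 1 member called between B and non-B cells. When 1 library at a time was left out, the members called numbered 2 to 3 for the genotype difference in B cells, 2 to 3 for IR in Trp53+/+ non-B cells, 2 to 4 between B and non-B cells, and did not change for the other comparisons. The replicate number as a block ended the call of the Cdkn2c genotype difference in B cells (adjusted p = 0.056) and no other member's call. The deviations of same-numbered Trp53-/- non-B mock and IR samples correlated at -0.253, and a block with the numbers of the IR samples crossed called 159 genes for IR there and no member. For same-numbered Trp53+/+ mock and IR samples the correlations were 0.156 to 0.323 in non-B cells and 0.015 to 0.087 in B cells. With no differently numbered samples compared, a pairing was not tested.

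Counts over all genes moved by more than 1.5 times with these settings. Without the fold threshold, 7092 genes were called for IR in Trp53+/+ B cells, 5562 in Trp53-/- B cells, 2594 for their difference, 2615 in Trp53+/+ non-B cells and 5991 between cell types. For IR in Trp53-/- non-B cells (69 genes), the count was 36 without a filter, 44 with the covariate, 18 with the block, 0 with the 2 groups alone (a smaller fit), and 8 without the libraries above 25%. The covariate gave 509 genes for IR in Trp53+/+ non-B cells and 398 for the genotype difference there. Between unstressed genotypes (8 genes each), 15 were called in B cells with the 2 groups alone and 15 in non-B cells with the block. Leaving out 1 library, which moved some of the counts by less, gave 3244 to 3525, 2617 to 3899, 1064 to 1952 and 6 to 15 genes in B cells (IR in Trp53+/+, IR in Trp53-/-, their difference, unstressed genotypes), 918 to 1419, 1 to 56, 315 to 1146 and 7 to 13 genes in non-B cells, 3297 to 3771 between cell types and 2459 to 2916 for the difference of their response. The cause of these changes was not tested. Where a fit left 1 library in a group, that library is assumed to vary like the other groups. Depth limits Cdkn1c, Cdkn2a, Cdkn2b and Cdkn2d, for which a read is a large step.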
